A study of Mus musculus with 2 samples.

Results

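Annotated genes of the *Peg3* imprinted domain on mouse chromosome 7 were examined, chosen by name: *Peg3*, *Zim1* and *Usp29*, with the sequence between *Peg3* and *Usp29*. They are 3 of the 1718 genes that lie wholly inside the deposited signal, and the rule that names them uses no measured value, although it was proposed with earlier results of these data known. Their RNA was measured in 2 libraries of mouse embryo fibroblasts (MEFs). JXO MEFs had a JF1 mother and a TgOG2 father, and OXJ MEFs had a TgOG2 mother and a JF1 father. Both lines came from a female embryo at 13.5 dpc, and each was 1 line, so there was 1 library per cross and no replicate. JF1 is an inbred strain of *Mus musculus molossinus* origin. TgOG2 mice carry an EGFP transgene driven by the promoter of *Pou5f1*, which marks germ cells and not somatic cells. *Pou5f1* itself had a sense exon level of 0 in both libraries.

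Imprinted genes are transcribed from 1 parental allele. *Peg3* is a paternally expressed gene for a large Krüppel-type zinc finger protein, known for roles in maternal behaviour, growth and cell death. *Usp29* is also paternally expressed and encodes a ubiquitin-specific protease. It starts next to *Peg3* and is transcribed away from it, and the shared start region carries the maternal DNA methylation of the domain. *Zim1* is a neighbouring zinc finger gene that is expressed from the maternal allele in the embryo. The deposited tracks give depth and no bases, and for this reason the 2 parental alleles were not told apart here.

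The names of the members and their predicted proteins were compared first. The coding sequence of *Peg3*-001 translates into 1571 residues with 11 matches to the C2H2 zinc finger pattern, a pair of cysteines and a pair of histidines at the usual spacing. That of *Zim1*-001 gives 579 residues, also with 11 matches, in a protein a good deal shorter. That of *Usp29* gives 869 residues and 0 matches, so *Usp29* belongs to the zinc finger domain by position only.

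The start regions of the 3 genes are shown because the direction of the signal beside *Peg3* is read from them. RefSeq windows of 300 bases across each gene start, mostly upstream of it, were taken from a table of GRCm38.p6 and matched base for base to mm9, the build of the deposited tracks. They lie at chr7:6683081-6683380 for *Peg3*, (−) strand, chr7:6683044-6683343 for *Usp29*, (+) strand, and chr7:6649094-6649393 for *Zim1*, (−) strand. Each is printed 5′ to 3′ on the strand of its gene, and capitals mark CCAAT or its reverse complement and the palindrome TGACGTCA.
Peg3: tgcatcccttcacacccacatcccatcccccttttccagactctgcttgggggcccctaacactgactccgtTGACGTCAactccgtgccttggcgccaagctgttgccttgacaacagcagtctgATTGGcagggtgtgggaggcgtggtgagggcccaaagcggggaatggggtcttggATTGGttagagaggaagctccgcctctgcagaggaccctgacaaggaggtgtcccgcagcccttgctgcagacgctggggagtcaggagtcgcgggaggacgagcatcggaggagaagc
Usp29: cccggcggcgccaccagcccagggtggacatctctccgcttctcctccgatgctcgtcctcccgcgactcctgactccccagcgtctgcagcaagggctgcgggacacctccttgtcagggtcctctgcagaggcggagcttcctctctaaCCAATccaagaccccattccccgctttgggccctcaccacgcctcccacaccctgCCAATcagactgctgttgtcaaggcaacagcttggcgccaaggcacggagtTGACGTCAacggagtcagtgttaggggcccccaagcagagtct
Zim1: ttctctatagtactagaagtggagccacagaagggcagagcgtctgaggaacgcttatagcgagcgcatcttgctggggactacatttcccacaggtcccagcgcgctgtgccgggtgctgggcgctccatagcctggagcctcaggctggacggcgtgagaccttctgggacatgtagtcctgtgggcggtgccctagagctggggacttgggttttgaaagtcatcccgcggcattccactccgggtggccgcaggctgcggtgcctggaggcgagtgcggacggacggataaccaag

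The *Peg3* and *Usp29* starts are 164 bases apart, and their windows share 263 bases, so the same pair of CCAAT matches and the same TGACGTCA stand in both. CCAAT was found in 37.4% and TGACGTCA in 1.79% of all 32851 promoter windows of that length, on either strand, and the marked matches do not overlap each other. *Zim1* had neither, but held 1 GGGCGG, as 35.7% of all windows did. TATAAA (13.6% of all windows) and ATGGCG (8.93%) were found in none of the 3. These are matches of letters and not binding sites. GC content was 61.3% for *Peg3*, 63.7% for *Usp29* and 61.7% for *Zim1*, against a median of 52.7% over all windows. They held 13, 17 and 20 CpG, against a median of 7.

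The RNA was depleted of ribosomal RNA and marked by strand with dUTP, which keeps spliced and unspliced RNA and tells sense from antisense. The authors deposited the read depth at each base on each strand as log2 values, scaled to 50000000 aligned reads. After the log was undone, a single read counted for 0.652 scaled depth in JXO and 0.579 in OXJ. The tracks hold 5837225 JXO reads and 5785447 OXJ reads, which lie in 618 stretches of 63.7 Mb. A level is the mean scaled depth per base, so it does not depend on gene length. The 95% intervals rest on read pairs and hold counting error alone, without any variation among embryos or cultures. Of 14 fibroblast marker genes, the 3 inside the stretches were detected in both libraries: the collagen gene *Col1a2* at 583 in JXO and 388 in OXJ, and the proteoglycan genes *Dcn* at 22.9 and 25.9 and *Lum* at 18.9 and 15.5. The listed muscle, blood, endothelial and epithelial markers lie outside the stretches and were not measured. Of 8 neural markers, 2 lay inside, and *Nes* stood at 340 in JXO and 155 in OXJ and *Sox2* at 1.27 and 1.22, and of 4 germ cell markers, *Pou5f1* and *Ddx4* lay inside, and *Ddx4* stood at 0.980 and 4.14. The part of other cells in the values below was not tested.

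Over annotated exons, *Peg3* was the highest of the 3 genes and *Zim1* was far lower. The annotated exon of *Usp29* had no read in either library. The sequence between the RefSeq start of *Usp29* and that exon held (+) reads, given further below. Over the exons of the longest transcripts, *Peg3* had a sense level of 34.4 (95% interval 33.0 to 35.8) in the JXO library and of 28.1 (26.9 to 29.3) in the OXJ library. That of *Zim1* was 3.48 (2.81 to 4.26) in JXO and 3.32 (2.71 to 4.04) in OXJ. The order *Peg3*, *Zim1*, *Usp29* was the same in both libraries, and neighbours in it differed beyond their counting intervals. *Peg3* was 9.90-fold higher than *Zim1* in JXO (exact interval 8.04 to 12.3) and 8.46-fold higher in OXJ (6.92 to 10.4). In bulk RNA, fewer cells that express a gene and less RNA per cell cannot be told apart.

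**Figure D1:**
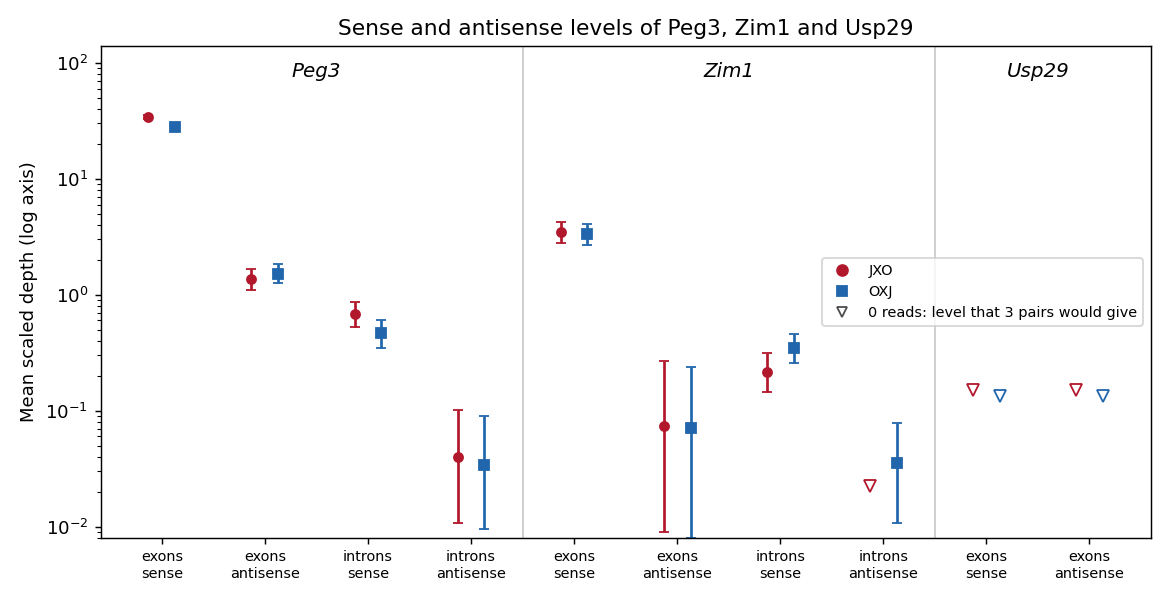
Mean scaled depth of the 3 genes on a log axis, for exons of the longest transcript and for bases in no annotated exon (introns), on the strand of the gene (sense) and the other (antisense). Circles are JXO and squares OXJ, bars are 95% counting intervals, and open triangles mark the level that 3 read pairs would give where there were 0 reads. Sense exon levels stand near 30 for *Peg3* and above 3 for *Zim1*, and all 4 values of *Usp29* are triangles.

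*Usp29* (ENSMUSG00000051527.6) is annotated in GENCODE M1 as 1 exon of 2610 bases, chr7:6913871-6916480 on the (+) strand, all of it coding sequence. There were 0 reads over this exon on either strand, in JXO and in OXJ. A count of 0 allows a level of up to 0.150 in JXO and 0.133 in OXJ, at 3 read pairs per library. Against this limit, *Peg3* was at least 229.6-fold higher in JXO and 211-fold higher in OXJ, and *Zim1* at least 23.2-fold and 24.9-fold higher. The only other gene named Usp inside the stretches, the protease gene *Usp35*, was at 0.705 in JXO and 1.17 in OXJ, and neither of these 2 genes passed the level minimum for the comparison of the crosses.

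*Peg3* (ENSMUSG00000002265.8) lies at chr7:6656603-6683132 on the (−) strand, with 5 annotated transcripts. The coding transcript *Peg3*-001 has 9 exons and 8694 exon bases, of which the last exon holds 7840. All 9 exons were covered in both libraries. In JXO they ranged from 21.5 in exon 1 to 37.6 in exon 6, with a median of 27.2. In OXJ they ranged from 18.1 in exon 2 to 36.2 in exon 6, with a median of 28.2. Exons 1 to 8 are between 84 and 164 bases long, and within a library the counting intervals of all 8 overlapped one another. The last exon stood at 35.1 (33.7 to 36.7) in JXO, above the interval of exon 1 (14.1 to 31.2). In OXJ it stood at 28.2 (27.0 to 29.5), an interval that overlapped those of the other exons.

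The 8 introns of *Peg3* were far lower than the exons. Intron levels ranged from 0.00850 in intron 3 to 1.63 in intron 2 in JXO, and from 0.0216 to 1.27 in the same introns in OXJ. Intron 2 includes the retained part of the short transcript *Peg3*-003, 4557 bases long, which stood at 2.18 in JXO (1.71 to 2.72) and 1.57 in OXJ (1.21 to 2.02). A 63-base exon used only by other transcripts of *Peg3* stood at 0.186 in JXO and 0 in OXJ. With the exons of all transcripts joined, the sense level was 23.2 in JXO and 18.9 in OXJ, and exons stood 34.3-fold (26.8 to 44.0) and 40.3-fold (31.0 to 54.4) above introns. Introns are here the bases in no exon of any transcript. With the exons and introns of *Peg3*-001 alone the ratios were 32.5 (27.4 to 38.7) and 37.5 (31.2 to 45.8). At the 16 exon borders of *Peg3*-001, the exon base carried 659 reads in all and the intron base next to it 34 reads in JXO, and 748 and 40 reads in OXJ.

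**Figure D2:**
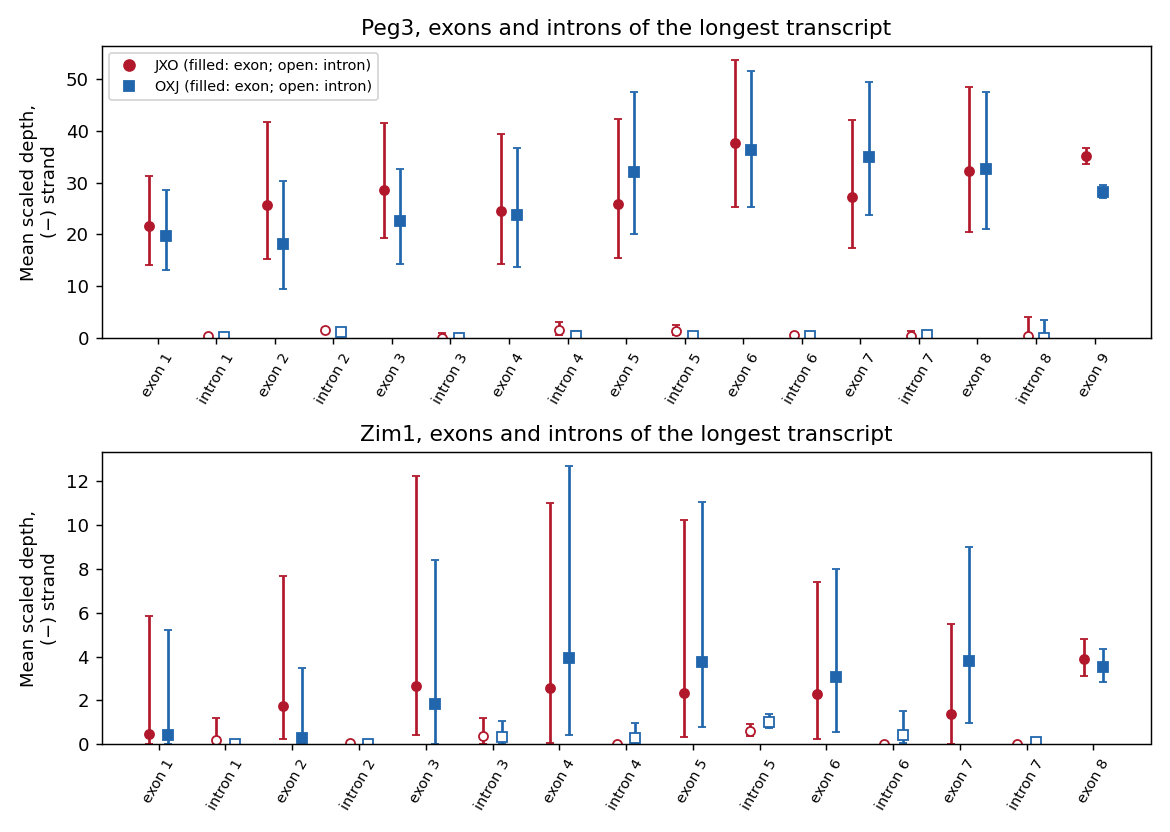
Mean scaled depth on the (−) strand for each exon (filled) and intron (open) of the longest transcript of *Peg3* (upper panel) and *Zim1* (lower panel), in 5′ to 3′ order. Circles are JXO, squares OXJ and bars 95% counting intervals. Every *Peg3* exon stands above 18 and every intron below 2, and the short *Zim1* exons have wide intervals.

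The edges of the *Peg3* signal lay close to the annotated ends of the gene model used, GENCODE M1. The paper reported a paternally expressed extension of *Peg3* that RefSeq does not annotate, and it lies within the last exon of this model. That extension spans nearly the same bases as the last 2 kb of the exon, which are compared below. The highest base with a (−) read at exon 1 was 9 bases inside the annotated start in JXO and 7 in OXJ. At the other end, reads reached to 15 bases from the annotated end in JXO and 4 bases in OXJ. The next 1 kb held 0 reads in both, which allows a level of up to 0.391 in JXO and 0.347 in OXJ at 3 read pairs. The last 30 bases of the transcript, chr7:6656603-6656632, are shown with the AATAAA polyadenylation signals in capitals, of which there are 2, side by side, within the last 50 bases.
Peg3 annotated end: tcAATAAAAATAAAgttaaaaataagataa

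Within the last exon of *Peg3*, the 2 libraries had different profiles. Along 15 bins of 500 bases, which cover all but the final 340 bases, JXO ranged from 21.4 to 63.5 with a median of 33.0, and OXJ from 15.0 to 36.1 with a median of 30.7. The lowest bin, 5000 to 5500 bases from the start of the exon, was the same in both. The highest in JXO was the bin at 7000 to 7500 bases, where OXJ had 34.8, and the highest in OXJ was the bin at 3000 to 3500 bases, with 39.9 in JXO. The last 2 kb of the exon stood at 46.8 in JXO and the rest of it at 31.1, a ratio of 1.503 (1.37 to 1.65). In OXJ the values were 28.8 and 28.02, a ratio of 1.03 (0.925 to 1.14).

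**Figure D3:**
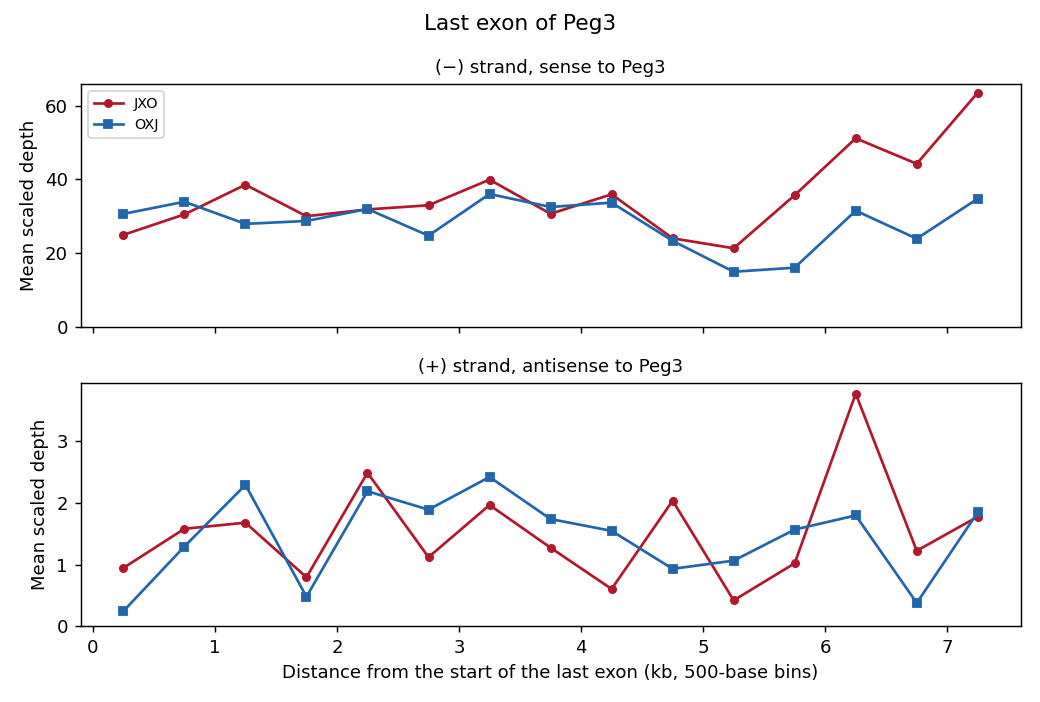
Mean scaled depth in 500-base bins along the last exon of *Peg3*, on the sense (−) strand above and on the (+) strand below, for JXO (circles) and OXJ (squares). The sense lines cross several times over the first 5 kb, and over the last 2 kb JXO lies above OXJ, reaching 63.5 against 34.8.

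The bases downstream of the coding end were compared with all other exon bases of *Peg3*-001. Downstream of the coding end, 3617 bases stood at 38.2 in JXO, against 31.7 over the other exon bases, a ratio of 1.204 (1.11 to 1.31). In OXJ the same bases stood at 25.0 against 30.3, a ratio of 0.825 (0.754 to 0.901). The 2 ratios are on opposite sides of 1, which was not tested, since each is from 1 library. The paper marked *Peg3* as paternal in MEFs, so its RNA is mostly of the TgOG2 allele in JXO and the JF1 allele in OXJ. The cross, the allele and the mismatches of JF1 reads to mm9 cannot be told apart in these ratios. Among 42 tested genes with a last exon of at least 4 kb, the ratio of the last 2 kb over the rest differed between the libraries by more than 1.5 fold in 7.14%. *Peg3*, with a log2 difference of 0.55 (JXO minus OXJ), was not past 1.5 fold, and 38 of the 42 genes had a lower difference. The median ratio of these genes was 0.977 in JXO and 0.961 in OXJ. The last 2 kb were chosen for comparison after the profile was seen.

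Levels just before and just past the shorter annotated ends of *Peg3* were compared. The 500 bases before the end of *Peg3*-002 stood at 30.5 and the 500 bases past it at 30.6 in JXO, and at 34.7 and 23.8 in OXJ. At the end of *Peg3*-201 the values before and past it were 39.9 and 30.8 in JXO, and 36.1 and 32.5 in OXJ. The intervals before and past an end overlapped in JXO for *Peg3*-002 and in both libraries for *Peg3*-201. In OXJ they did not overlap for *Peg3*-002, at 29.4 to 40.8 and 19.5 to 28.9. Overlap of intervals does not show that the levels were equal, and their ratio was not tested.

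Most of the *Peg3* signal was sense, with a low antisense signal that lay mostly over exons. Of the exon signal of all transcripts, 96.2% was sense in JXO (Clopper-Pearson interval 95.4 to 96.9%) and 94.9% in OXJ (93.9 to 95.8%). The median tested gene had 97.3% and 96.4%, and 519 of 757 tested genes in JXO and 567 in OXJ had a higher share than *Peg3*. A share of at least 95% in both libraries was seen in 67.6% of tested genes. *Zim1* was among them, with 97.9% in JXO (92.7 to 99.7%) and 97.9% in OXJ (93.2 to 99.8%), and *Peg3* was not, since its share in OXJ was just under this limit. With bases of 1 read set to 0 the shares of *Peg3* were 96.6% in JXO and 95.3% in OXJ, and it was past the limit in both.

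Over the *Peg3*-001 exons the antisense strand stood at 1.37 (1.10 to 1.68) in JXO and at 1.52 (1.25 to 1.82) in OXJ. Over the introns the antisense level was 0.0395 in JXO and 0.0342 in OXJ. In the last exon the antisense bins of JXO ranged from 0.420 to 3.78 and those of OXJ from 0.244 to 2.42. At exon 1 the antisense level was 1.58 in JXO and 4.85 in OXJ, from 3.98 and 13.8 reads, and its counting intervals overlapped. The (+) reads there began at the first base past intron 1 in both libraries, which is the border of the (−) strand exon. Antisense RNA and sense RNA read on the wrong strand cannot be told apart in these levels, and this was not tested.

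*Zim1* (ENSMUSG00000002266.9) lies at chr7:6628154-6649161 on the (−) strand, with 2 annotated transcripts. *Zim1*-001 has 8 exons and 3519 exon bases, and its last exon has 2820. Over the exons of both transcripts the sense level was 3.37 in JXO and 3.25 in OXJ, from 188 and 204 reads. Single exons ranged from 0.477 in exon 1 to 3.87 in exon 8 in JXO and from 0.278 in exon 2 to 3.95 in exon 4 in OXJ. The 7 exons before the last hold fewer than 9 reads each, so the differences among them were within their counting intervals.

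Exons of *Zim1* stood 15.7-fold (10.1 to 24.3) above its introns in JXO and 9.31-fold (6.64 to 13.3) in OXJ. The introns stood at 0.214 (0.146 to 0.313) in JXO and at 0.349 (0.259 to 0.455) in OXJ. The highest intron was intron 5 in both libraries, with 0.628 in JXO (0.395 to 0.934) and 1.02 in OXJ (0.728 to 1.36). Antisense exon levels were 0.0716 in JXO and 0.0688 in OXJ, from 4 and 4.33 reads. Both values lie below the limit that 3 read pairs set over these exons, 0.107 and 0.0954.

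The (−) signal of *Zim1* continued past its annotated end. It reached 3.95 kb further in JXO and 4.19 kb further in OXJ, and the longest gap without a read was 161 bases in JXO and 143 bases in OXJ. Over these 4190 bases JXO had a level of 2.65 (2.11 to 3.27), 0.686 of that of the last exon (0.498 to 0.932). OXJ had a level of 2.40 (1.93 to 2.97), 0.680 of that of the last exon (0.4995 to 0.928). On the (+) strand the same bases held 3 reads in JXO and 1 in OXJ. No AATAAA was found in the last 50 bases before the annotated end or before the last base with signal. Both ends are shown for this reason, chr7:6628154-6628183 and chr7:6623964-6623993, each on the (−) strand.
Zim1 annotated end: atgttagcataaaatatgtttttaaatgtg
Zim1 last base with signal: tatttttttcatctaaagccaatgagtcca

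Of the bases past the annotated end of *Zim1*, 3.60% lay in near-identical matches (at least 95% over 90 bases) elsewhere in the genome, and none of the exon bases of the 3 genes did. A stretch of 663 aligned bases past the end was 80.1% identical to *Zim1*-001 itself. This stretch was defined from the signal, so its level is a description. Stretches were joined from covered bases, so the lowest base with signal in OXJ is by definition the lower border of the stretch. No covered base lay within 50 kb below it in any track. Whether sequence there was part of the deposit was not examined. The RefSeq start of *Zim2*, the next zinc finger gene of the domain, matched mm9 8.89 kb below that border.

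Between *Zim1* and *Peg3* the RNA signal was almost absent. The 7441 bases from the start of *Zim1* to the end of *Peg3* held 2 (−) reads and 0 (+) reads in each library. Of the genes next to the members, the kinase gene *Aurkc* past *Usp29* held 2 sense reads in JXO and 0 in OXJ, *AC149277.1* and *AC149277.2* held 0, and the olfactory receptor gene *Olfr1350* lies outside the stretch. *Zim2*, *Zim3*, *Zfp264* and the antisense genes of the domain are not named in the annotation used and were not analysed here.

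The 230.7 kb between *Peg3* and *Usp29* held little signal, and most of it was on the (+) strand near *Peg3*. On the (+) strand there were 110 reads in JXO, a level of 0.0311 (0.0234 to 0.0404), and 52 reads in OXJ, a level of 0.0130 (0.00852 to 0.0191). On the (−) strand there were 26 reads in JXO and 19 in OXJ. Of the (+) reads, 101 of 110 in JXO and all 52 in OXJ lay in the first 40 kb from *Peg3*. The other 190.7 kb up to the *Usp29* exon held 9 (+) reads in JXO and 0 in OXJ. Signal was seen on the (+) strand in 16 of 230 bins of 1 kb in JXO and 20 in OXJ, and on the (−) strand in 6 and 5.

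**Figure D4:**
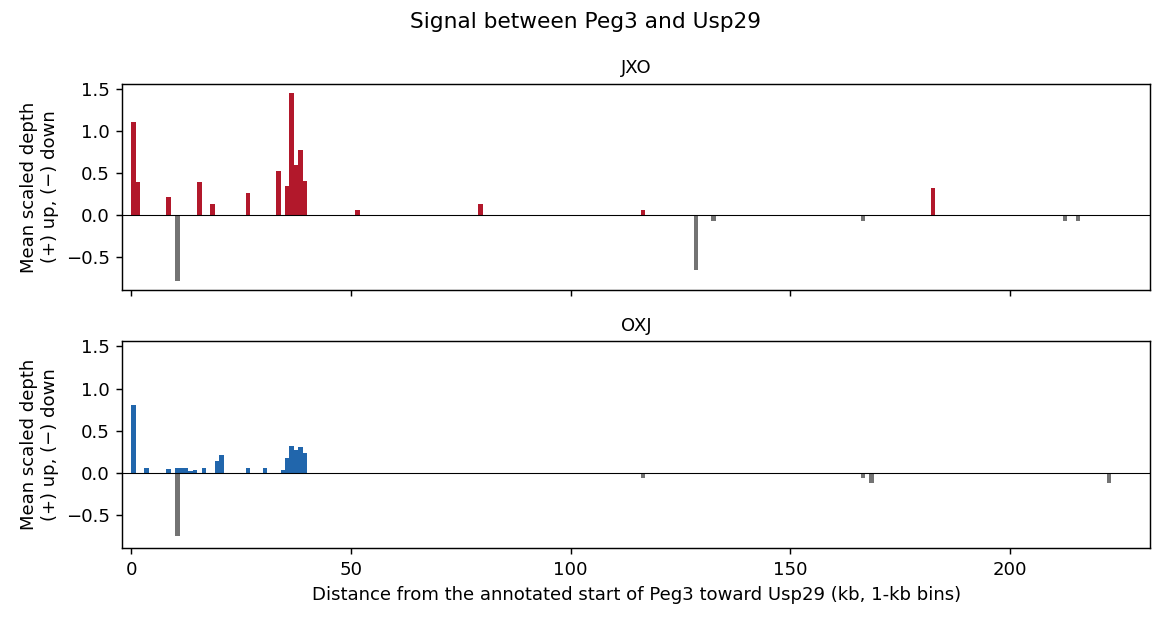
Mean scaled depth in 1-kb bins from the annotated start of *Peg3* (0) toward *Usp29*, with (+) strand signal drawn upward and (−) strand signal downward (grey), for JXO above and OXJ below. In both, (+) signal stands beside *Peg3* and again between 35 and 40 kb, and grey bars at 10 kb are of like height.

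Within this interval, blocks of signal with at least 10 reads in both libraries together, joined over gaps of up to 1 kb, were located after the signal was seen. The block next to *Peg3*, chr7:6683442-6685112, held 23 (+) reads in JXO and 14 in OXJ, with 12 and 14 distinct left ends. It began 148 bases downstream of the RefSeq start of *Usp29* printed above, in the direction of that gene. The largest (+) block, chr7:6718995-6722614, lay 35.9 to 39.5 kb from *Peg3*, with 54.6 reads at a level of 0.984 in JXO and 22.5 reads at 0.360 in OXJ. Its distinct left ends numbered 48 in JXO and 23 in OXJ. Neither block had near-identical matches elsewhere. From the RefSeq *Usp29* start to the annotated *Usp29* exon there are 230.6 kb, and no (+) read of OXJ was seen beyond the first 40 kb from *Peg3*.

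Of the (−) strand blocks, chr7:6693666-6693941 held 12 reads in JXO and 13 in OXJ, with 10 and 12 distinct left ends. It was 95.6% identical over 274 bases, with 12 mismatches, to the mRNA of *Tctex1d2*, a gene annotated on chromosome 16, and 49.3% of its bases lay in near-identical matches elsewhere. Reads were allowed to align to up to 10 loci, and how many of these reads came from *Tctex1d2* was not tested.

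The reciprocal crosses were compared as JXO over OXJ on the log2 scale. The median tested gene was 1.39-fold higher in JXO as deposited, a log2 shift of 0.47, and ratios were centred on it. *Peg3* had a log2 ratio of -0.17 (exact conditional interval -0.26 to -0.09) after centring, but 0.30 as deposited and 0.11 at equal totals, so its direction depended on the scaling. *Zim1* had a ratio of -0.42 (-0.84 to -0.00) after centring and 0.05 as deposited. Over the exons of its longest transcript the centred ratio was -0.41 (-0.83 to 0.01), an interval that includes 0. Neither gene was past 1.5 fold after centring, as 160 of the 757 tested genes (21.1%) were, 58 higher (7.66%) and 102 lower (13.5%) in JXO. As deposited, 294 tested genes were higher (38.8%) and 32 lower (4.23%) by that fold, and neither member was among them. *Usp29* was not tested. With 1 library per cross there is no replicate check on any of these ratios. For *Peg3*, the cross and the strain of the expressed paternal allele cannot be told apart.

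Ratios were also taken for parts of *Peg3*. After centring, exons 1 to 8 had a log2 ratio of -0.44 (-0.73 to -0.13), the last exon before its last 2 kb -0.32 (-0.43 to -0.21), and the last 2 kb 0.23 (0.06 to 0.40). As deposited these were 0.04, 0.15 and 0.70. The last 2 kb were picked after the profile was seen, so their ratio is a description. Differences among the parts were not tested. The signal past the end of *Zim1* had a ratio of -0.33 (-0.78 to 0.11) after centring and 0.14 as deposited, so it differed from that of the *Zim1* exons by less than the counting error. The (+) strand between *Peg3* and *Usp29* had a ratio of 0.78 (0.08 to 1.51) after centring and 1.25 as deposited, from the 110 and 52 reads above. Reads that share a left end are included in these counts.

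**Figure D5:**
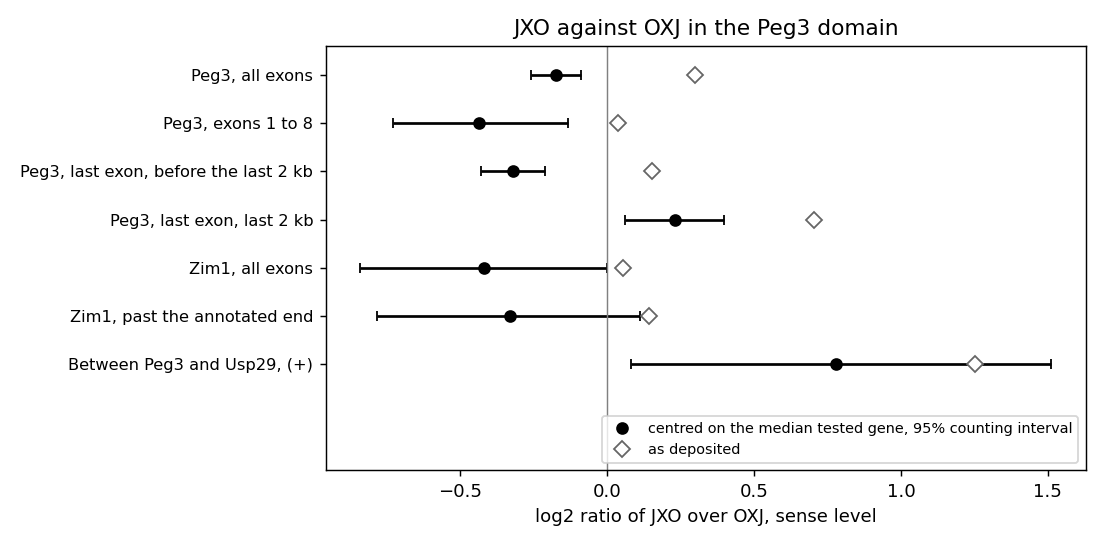
Log2 ratio of JXO over OXJ for parts of the domain, centred on the median tested gene (black circles with 95% counting intervals) and as deposited (open diamonds). The last 2 kb of *Peg3* and the (+) strand between *Peg3* and *Usp29* lie right of 0 on both scales, and the other parts lie left of 0 when centred and right of it as deposited.

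The members were set beside zinc finger and imprinted genes of the same tracks. Of 14 genes with zinc finger symbols inside the stretches, *Zim1* included, 9 were tested and 0 were past 1.5 fold, with no test between crosses possible, against 21.1% of all tested genes. As deposited, *Zfp740* and *Zscan29* were past it, both higher in JXO, as were 38.8% of all tested genes. Over the exons of all transcripts, *Zim1* was the 8th highest. The 4 highest were *Zfp106* at 108 in JXO and 77.5 in OXJ, *Zfp740* at 44.5 and 28.5, *Zfp57*, which maintains methylation at imprinted regions, at 30.1 and 22.5, and *Zfp768* at 26.8 and 19.97. On the same scale *Peg3*, whose symbol is not of that kind, stood at 23.2 and 18.9.

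Of 17 tested paternally expressed imprinted genes, *Peg3* among them, 1 was past 1.5 fold higher in JXO after centring and 2 lower, with a median log2 ratio of 0.11. As deposited, 8 were higher and 0 lower, where 38.8% of all tested genes were higher and 4.23% lower. Past the fold after centring were the amino acid transporter gene *Slc38a4* (0.79), the retrotransposon-derived gene *Peg10* (-0.73) and the deiodinase gene *Dio3* (-0.64). *Usp29* was the only gene of this list inside the stretches with 0 sense reads over its annotated exons in both libraries. *Magel2* stood at 0.0559 in JXO and 0.0248 in OXJ. These values lie below the 0.150 and 0.133 that 0 reads over the *Usp29* exon allow, so the 2 genes were not set apart. Of 13 tested genes listed as maternally expressed, *Zim1* among them, 2 were higher and 2 lower after centring, with a median of -0.10. As deposited, 4 were higher and 0 lower. The paper marked *Blcap*, which is on this list, as paternal in MEFs. *Zim1*, *Ube3a*, *Gnas* and *Phlda2* are not among the known imprinted genes for which the paper listed allele-specific RNA in MEFs. Of the tested paternally expressed genes, *Mcts2*, *Zrsr1*, *Dio3* and *Mkrn3* are not among them either. The paper reported RNA of both alleles in MEFs for some known imprinted genes, and too little RNA to call others. Which allele was expressed was not tested here. Past the fold after centring were *Phlda2* (1.15), *Asb4* (1.02), the growth factor receptor gene *Igf2r* (-0.62) and the noncoding RNA *H19* (-0.59). These genes were named after their values were seen, beside the 21.1% of all tested genes that were past 1.5 fold in either direction.

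The tested genes most like the members in sense and antisense exon levels over both libraries, by Euclidean distance of log2(level + 0.1), were *Cdk5rap3* (0.28), *Slc25a37* (0.30) and *Th1l* (0.33) for *Peg3*. For *Zim1* they were *Ezh1* (0.25), *C2cd3* (0.45) and *Hoxd11* (0.49). *Cdk5rap3* had sense levels of 27.2 in JXO and 21.1 in OXJ, and *Ezh1* 3.42 and 2.81. The likeness is over 4 values from 2 libraries and is a description.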

How the data were processed

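Strand-specific, ribosome-depleted, paired-end RNA-seq of 1 JXO and 1 OXJ MEF line was analysed. The submitters' processing notes name CASAVA 1.9 and TopHat 1.2.0 with mm9, and reads could align to up to 10 loci. JF1 bases count as mismatches to that build; the effect on depth was not tested. The authors piled up the reads at each base and deposited 4 tracks of log2(1 + depth), with the depth scaled to 50000000 aligned reads. Depth was recovered from the log2 values and was a whole multiple of 1 read at every base. The tracks hold 7.61% of the aligned reads of JXO and 6.70% of OXJ. Those named forward hold (−) strand RNA: 562 of 568 tested protein-coding genes in JXO and 560 in OXJ were higher on their annotated strand. Gene models were GENCODE M1 (mm9). Covered bases were joined over 50 kb. Genes wholly inside, with a mean level of at least 1 and reads in both libraries, were tested: 757 of 1718.

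Intervals are exact Poisson, Clopper-Pearson or conditional binomial at 95%, on read pairs of 200 bases. Reads without molecular identifiers are not independent molecules. No p-value was computed between crosses. Named were the members, their neighbours, the 4 highest zinc finger genes, Usp genes inside the stretches and the 3 tested genes nearest to each member. Marker genes inside the stretches and list members past 1.5 fold were named as well, after their values were seen. The members and lists were chosen with earlier results of these data known. Alternatives changed the scaling, measure, exons and filters. Sequences were compared by BLAST 2.17.0, with Python 3.11.15, numpy 2.4.6 and scipy 1.17.1. The track reader was tested on simulated data.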

Additional observations from a re-analysis of the deposited data

Results flagged for a closer look

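The level of *Peg3* downstream of the coding end over its other exon bases was 1.204 in JXO and 0.825 in OXJ, so the libraries of the reciprocal crosses lay on opposite sides of 1. The difference was not tested, since there was 1 library per cross. It cannot be told apart from a difference between the TgOG2 and JF1 alleles, or from mismatches of JF1 reads. With the mean of the log2 values in place of the mean depth, the ratios were 1.10 and 0.740.

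Past the annotated end of *Zim1*, in sequence outside any annotated exon, JXO had 170.6 (−) reads and OXJ had 174. The last exon of *Zim1*, 2820 bases long, had 167 in JXO and 172 in OXJ.

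A block on the (−) strand between *Peg3* and *Usp29*, chr7:6811355-6811506, held 10 reads in JXO and 0 in OXJ. It was flagged for having more than 3 single reads, whereas the limit used above for 0 reads is 3 read pairs. The 10 reads had 2 distinct left ends, and the block had no near-identical match elsewhere in the genome and no similar annotated transcript. Molecular identifiers were not used, so copies of 1 molecule and separate molecules cannot be told apart.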

How the results depend on the processing

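Of 71 alternative values, 48 lay within the counting interval of the main value, or within 1.5 times for the gene count, and 23 did not. The log2 ratio of JXO over OXJ for *Peg3* was 0.30 as deposited, 0.11 at equal totals and -0.042 with the median 10 kb bin set equal, and that of *Zim1* was 0.053 as deposited, so the sign of both turned with the scaling. Under no setting was either past 1.5 fold. With bases of 1 read set to 0, the sense share of *Peg3* in OXJ passed 95%, at 95.3%. With the mean of the log2 values, the sense share of *Peg3* was 95.3% in JXO and 93.4% in OXJ, its exon over intron ratio 25.8 and 28.2, its 3′ part over the rest 1.10 and 0.740, and the level between *Peg3* and *Usp29* 0.0173 on (+) and 0.00349 on (−) in JXO. With bases of 1 read set to 0, the exon over intron ratio of *Peg3* was 56.9 in OXJ and the (+) level between the genes 0.00744 in OXJ. With medians over 100 bp bins, the *Peg3* exon over intron ratio was 57.9 in JXO and 79.0 in OXJ. That of *Zim1* could not be computed because the median intron bin was 0. With the exons and introns of the longest transcript alone, an alternative added after seeing the data, no such ratio left its counting interval. In bins of 5 kb, signal between the genes stood in 21.7% (+) and 13.04% (−) of bins in JXO and 17.4% and 8.70% in OXJ, against 6.96%, 2.61%, 8.70% and 2.17% in bins of 1 kb. Genes past 1.5 fold were 326 of 757 as deposited, 439 of 1228 with no filter on low levels and 77 of 554 at a minimum level of 5, against 160 of 757. No paired analysis was possible because there was 1 library per cross, and no library could be left out. Depth limits *Usp29*, the short *Zim1* exons and the antisense signal of *Zim1*, where a few read pairs decide the value.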
